A study of Mus musculus with 6 samples.

Results

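Genes commonly listed for microglia in their resting, surveying state were compared between hippocampal libraries of control mice and of mice labelled L-DL KD (KD-labelled libraries). The group holds 9 genes chosen by symbol, Cx3cr1, P2ry12, P2ry13, Tmem119, Csf1r, Siglech, Aif1, Sall1 and Gpr34. Not all are particular to that state or to microglia, as other macrophages also express Cx3cr1, Csf1r and Aif1. Each matched 1 Ensembl gene of the 52550 in the count table, and all 9 were among the 17621 genes with enough counts to be tested. All 9 were higher in the KD-labelled libraries, but by unequal factors, from 1.48-fold for P2ry12 to 2.89-fold for Cx3cr1.

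Microglia are the resident macrophages of the brain. They depend on signalling through Csf1r for survival, sense neuronal fractalkine through Cx3cr1 and extracellular ADP through P2ry12, and keep their identity through transcription factors such as Sall1, Spi1 and Irf8 together with TGF-beta. In many forms of microglial activation P2ry12 and Tmem119 are known to be lowered. Fewer or more cells of a type and less or more RNA per cell cannot be told apart in bulk samples.

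The mice were male C57BL/6 J mice injected as adults with adeno-associated virus (AAV) into the CA1 area of both hippocampi. Control mice (n = 3 libraries), called wild type in the sample labels, received virus with control shRNA, and the L-DL KD mice (n = 3 libraries) received virus with tandem shRNAs against L-DL, the long isoform of hnRNP DL. The shRNAs were driven by the H1 promoter, which is not restricted to 1 cell type, whereas the virus also carried zsGreen under a CamkIIα promoter that marks neurons. The study's methods give a higher titre for the control virus, and the titre and the shRNA cannot be told apart. The labels call the second group a knockdown in 1 field and a knockout in another. The labels number the replicates without saying that each is a separate mouse, so the p-values measure the spread between these samples.

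Libraries held 16052529 to 17913064 gene counts. The targeted gene Hnrnpdl had 171 to 184 CPM (gene counts scaled to a common library total with edgeR's TMM method) in the controls and 150 to 217 CPM in the other group, a log2 fold change of 0.03 (standard error 0.125, edgeR adjusted p = 0.898). The count covers all isoforms of the gene. The study assessed the knockdown by immunoblotting for L-DL protein in injected hippocampus and reported reduced L-DL. These gene counts do not measure that isoform or its protein. As no fall in the RNA counts of the gene was detectable, the second group is named here by its label alone, as KD-labelled libraries. Over tested genes, the first KD-labelled library stood apart from the other two of its group, with a chi-square per degree of freedom of 26.2 and 34.1 against 10.4 between those, and of 7.23 to 12.9 among controls.

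To show the sequence context of members at both ends of the range of change, the RefSeq promoter windows (GRCm38.p6, 250 bases before to 50 bases after the annotated start) of Cx3cr1, which rose most, of P2ry12, which rose least, and of P2ry13, the neighbour of P2ry12 on chromosome 3, are printed here 5′ to 3′ on the gene's strand. Capitals mark GAGGAA, the core that the myeloid factor PU.1 (encoded by Spi1) is known to bind, searched on both strands. The windows lie on the minus strand at chr9:120068247-120068546 for Cx3cr1, chr3:59262936-59263235 for P2ry12 and chr3:59210833-59211132 for P2ry13.
Cx3cr1: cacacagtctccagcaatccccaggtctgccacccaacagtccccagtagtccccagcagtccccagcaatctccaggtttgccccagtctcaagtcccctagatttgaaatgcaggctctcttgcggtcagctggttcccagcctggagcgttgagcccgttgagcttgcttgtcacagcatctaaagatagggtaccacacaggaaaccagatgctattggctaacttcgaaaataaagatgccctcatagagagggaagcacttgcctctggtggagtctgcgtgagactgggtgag
P2ry12: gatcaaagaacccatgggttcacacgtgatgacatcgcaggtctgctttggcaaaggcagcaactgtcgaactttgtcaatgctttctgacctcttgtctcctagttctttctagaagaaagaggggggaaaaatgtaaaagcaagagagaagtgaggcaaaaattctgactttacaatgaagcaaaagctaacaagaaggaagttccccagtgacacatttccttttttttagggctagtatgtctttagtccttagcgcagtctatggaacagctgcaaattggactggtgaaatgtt
P2ry13: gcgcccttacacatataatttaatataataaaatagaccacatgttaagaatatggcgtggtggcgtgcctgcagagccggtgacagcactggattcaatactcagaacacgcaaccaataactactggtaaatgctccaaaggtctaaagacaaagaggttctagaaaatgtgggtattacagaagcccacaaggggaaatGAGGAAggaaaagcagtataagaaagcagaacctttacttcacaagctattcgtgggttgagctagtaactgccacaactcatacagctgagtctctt
Windows were given for 6 of the 9 members, 8 windows in all, as Sall1 has 3. GAGGAA was found in 3 of these 8 windows, those of P2ry13 (48 bases before the start), Siglech (4 bases before) and Aif1 (7 bases before), and in 28.3% of all 32851 promoter windows. The ETS-IRF composite element, here GGAA followed after any 2 bases by GAAA and searched on both strands, was in 0 of the 8 and in 2.72% of all windows. Gpr34, Tmem119 and Csf1r were not searched. A match describes letters in these windows and is not a binding site.

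Csf1r and Cx3cr1, the receptors for protein ligands, had the largest fold changes of the 9 members. Csf1r (ENSMUSG00000024621, chromosome 18 from 61100598 to 61132149 of GRCm38, plus strand) encodes the receptor kinase for CSF1 and IL-34. It was at 215, 232 and 197 CPM in control replicates 1 to 3 and at 495, 553 and 577 CPM in KD-labelled replicates 1 to 3. The groups lay far apart, with the lowest KD-labelled library above the highest control. Its log2 fold change was 1.34 (standard error 0.0896, edgeR's quasi-likelihood test, adjusted p = 0.000114), a rise of 2.52-fold with a 95% interval of 2.19 to 2.91. Csf1r shares 873 exonic bases with Hmgxb3 on the opposite strand, and reads there cannot be assigned without strand.

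Cx3cr1 (ENSMUSG00000052336, chromosome 9 from 119901616 to 120069879, minus strand) encodes the fractalkine receptor, which in the brain is found mainly on microglia. Controls held 99.5, 116 and 93.4 CPM, and the KD-labelled libraries held 301, 279 and 314 CPM. No other member moved as far. The change was 1.53 on the log2 scale (standard error 0.0964, edgeR adjusted p = 8.9e-05), or 2.89-fold (95% interval 2.48 to 3.37), at percentile 98.2 of all tested genes. Of the 17621 tested genes, 325 had a larger log2 fold change. Cx3cr1 shares 78 exonic bases with Gm33858 on the opposite strand. Gm33858 had 2, 6 and 12 counts in the controls and 38, 9 and 39 in the KD-labelled libraries.

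Among the G protein-coupled receptors for nucleotides and lipids, the changes were less even. P2ry12 (ENSMUSG00000036353, chromosome 3 from 59216272 to 59262871, minus strand) encodes the ADP receptor by which microglia extend processes towards injury. It stood at 45.2, 55.3 and 42.7 CPM in the controls and at 63.3, 74.1 and 74.9 CPM in the KD-labelled libraries. The groups did not overlap, but the gap between the highest control and the lowest KD-labelled library was narrow. The rise was 1.48-fold (95% interval 1.23 to 1.78; log2 fold change 0.57, standard error 0.115, edgeR adjusted p = 0.00782).

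P2ry13 (ENSMUSG00000036362, chromosome 3 from 59207892 to 59210882, minus strand), a second ADP receptor, had 26.3, 27.5 and 25.4 CPM in the controls against 41.2, 48.7 and 59.3 CPM. The controls lay close together and the KD-labelled libraries were spread widely above them. P2ry13 rose by 0.91 on the log2 scale (standard error 0.133, edgeR adjusted p = 0.0019). Both ADP receptor genes lie within Med12l, which is on the opposite strand and shares 9 exonic bases with P2ry12 and none with P2ry13.

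Gpr34 (ENSMUSG00000040229, chromosome X from 13632089 to 13640858, plus strand), which encodes a receptor for lysophosphatidylserine, was measured at 15.8, 17.7 and 18.2 CPM in the controls and 35.2, 43.2 and 43.6 CPM in the KD-labelled libraries. The first KD-labelled library was the lowest of its group, and the groups did not overlap. It rose 2.36-fold (95% interval 1.95 to 2.84; log2 fold change 1.24, standard error 0.118, edgeR adjusted p = 0.000339). The gene lies within Cask on the opposite strand and shares no exonic bases with it.

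Of the surface proteins with less defined ligands, Tmem119 (ENSMUSG00000054675, chromosome 5 from 113793729 to 113800516, minus strand) encodes a transmembrane protein used to tell microglia from other macrophages. Its levels were 72.2, 85.8 and 64.9 CPM in the controls and 94, 121 and 124 CPM in the KD-labelled libraries. The first KD-labelled library lay nearest to the controls. Tmem119 rose 1.52-fold (95% interval 1.22 to 1.88; log2 fold change 0.6, standard error 0.134, edgeR adjusted p = 0.0118). Without control replicate 1 its log2 fold change was 0.58 and its adjusted p 0.0504, past the threshold of 0.05 by a small margin, and over all libraries left out in turn the adjusted p of Tmem119 ranged from 0.00132 to 0.0504.

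Siglech (ENSMUSG00000051504, chromosome 7 from 55768178 to 55778925, plus strand) belongs to the family of sialic acid-binding lectins and signals through the adaptor encoded by Tyrobp. It had 16.4, 21.6 and 15.4 CPM in the controls and 33.8, 43.4 and 34.4 CPM in the other group. In each group replicate 2 was the highest. The difference was 2.09-fold (95% interval 1.62 to 2.7; log2 fold change 1.06, standard error 0.16, edgeR adjusted p = 0.00221).

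Aif1 and Sall1 act inside the cell. Aif1 (ENSMUSG00000024397, chromosome 17 from 35170991 to 35176068, minus strand) encodes the actin-bundling protein Iba1, the usual stain for microglia, and was at 22.1, 20.6 and 15.7 CPM in the controls and 37.4, 41.8 and 42.9 CPM in the KD-labelled libraries. The groups were well separated. The fold change was 2.09 (95% interval 1.68 to 2.6; log2 fold change 1.06, standard error 0.138, edgeR adjusted p = 0.00119).

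Sall1 (ENSMUSG00000031665, chromosome 8 from 89027235 to 89044162, minus strand), a zinc finger factor that holds microglia in their resting identity, was at 49.6, 49.9 and 51.4 CPM in the controls and 96.2, 107 and 114 CPM in the KD-labelled libraries. The controls were almost equal, and this gene had the smallest relative spread of the members there. Sall1 rose 2.1-fold (95% interval 1.85 to 2.39; log2 fold change 1.07, standard error 0.0794, edgeR adjusted p = 0.000162).

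**Figure D1:**
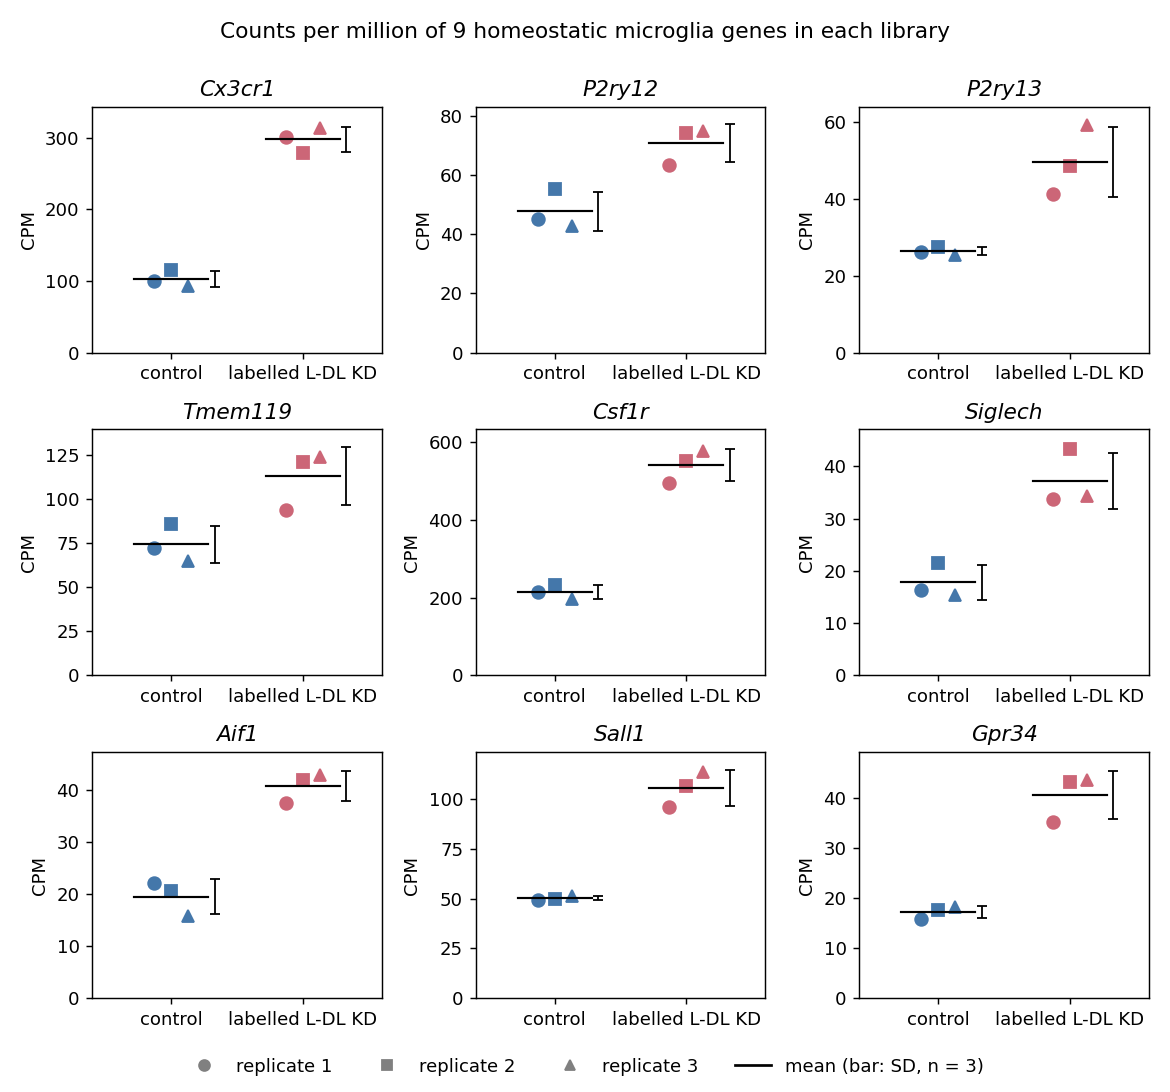
CPM of each of the 9 genes (vertical axes, starting at 0, each gene on its own scale) in the 3 control libraries (blue) and the 3 KD-labelled libraries (red), with the group mean as a line, the SD as a bar and the replicate number as the symbol. In all 9 panels the lowest red point lies above the highest blue point, with the narrowest gaps for P2ry12 and Tmem119.

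In all, 9 of 9 members were called higher at an adjusted p under 0.05, where 15.6% of all tested genes were called higher and 15.0% lower (30.5% in either direction). The median log2 fold change was 1.06 over the members and 0.01 over all tested genes. The KD-labelled libraries lay above all controls in 9 of 9 members, against 23.8% of all tested genes. A rise of more than 2-fold was seen in 6 members, and the members' log2 fold changes lay between percentile 85.9 (P2ry12) and 98.2 (Cx3cr1) of all tested genes. The largest adjusted p of a member was 0.0118 in edgeR and 0.00021 in DESeq2. Without the first KD-labelled library, which stood apart, the members' log2 fold changes were 0.64 to 1.53 and their largest edgeR adjusted p was 0.00229. Scaling by total library size, where the median of all genes moved from 0.01 to 0.04, gave members' changes of 0.6 to 1.56 on the log2 scale.

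**Figure D2:**
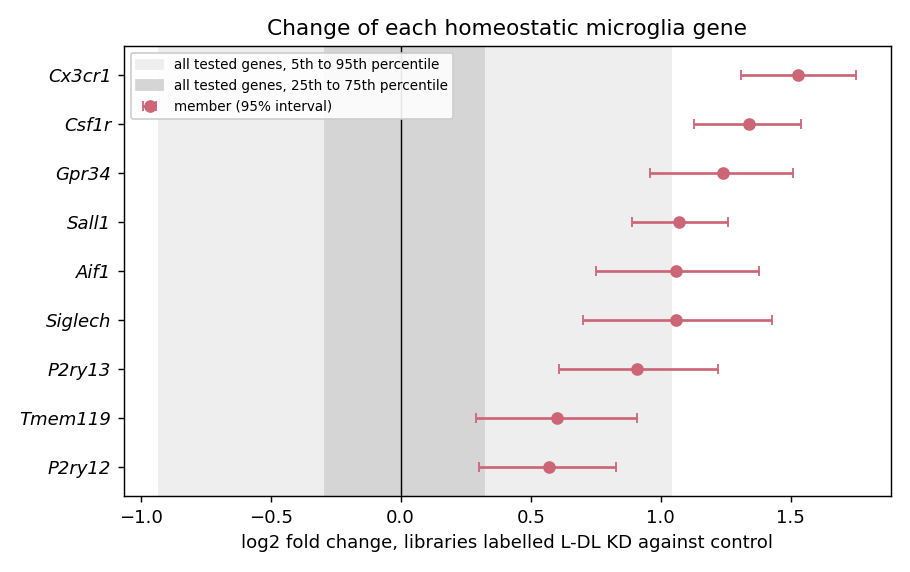
Log2 fold change of each gene (horizontal axis, KD-labelled libraries against controls, n = 3 each) with its 95% interval from edgeR, over grey bands from the 5th to the 95th and from the 25th to the 75th percentile of all 17621 tested genes. The points of 6 genes, led by Cx3cr1 (1.53), lie beyond the 95th percentile of all genes (1.04), and those of P2ry13 (0.91), Tmem119 (0.6) and P2ry12 (0.57) lie below it.

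Summed over the 9 genes, the level was 562, 627 and 524 CPM in control replicates 1 to 3 and 1200, 1310 and 1380 CPM in the KD-labelled libraries. The ratio of the group means was 2.27. The members tended to follow the same library order. Control replicate 2 was the highest control for 6 members and control replicate 3 the lowest for 7. The third KD-labelled library was the highest of its group for 8 members, with Siglech as the exception, and the first was the lowest for 8, with Cx3cr1 as the exception.

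Whether the members moved by the same factor was asked by setting each against the summed CPM of the other 8, a ratio in which library scaling cancels. Cx3cr1 made up 17.7, 18.6 and 17.8% of the members' CPM in the controls and 25.2, 21.3 and 22.7% in the KD-labelled libraries. Csf1r went from 37.6% ± 0.592 (SD, n = 3) to 41.7% ± 0.418 (SD, n = 3). These 2 members took a larger share in every KD-labelled library than in any control.

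P2ry12 went the other way. It made up 8.05, 8.82 and 8.16% in the controls and 5.29, 5.66 and 5.41% in the KD-labelled libraries. Tmem119 went from 13% ± 0.655 (SD, n = 3) to 8.67% ± 0.715 (SD, n = 3) and P2ry13 from 4.64% ± 0.232 to 3.82% ± 0.431 (SD, n = 3 each). For these 3 genes every KD-labelled library lay below every control.

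The log2 ratio to the other members differed between the groups by 0.44 for Cx3cr1, 0.25 for Csf1r, -0.66 for P2ry12, -0.65 for Tmem119 and -0.3 for P2ry13 (-0.163 against the mean log2 CPM of the others). For each of these 5 genes the two-sided exact permutation test gave p = 0.1, the smallest p that 3 libraries against 3 allow, and 0.18 after Benjamini-Hochberg adjustment over the 9 members, so that a p under 0.05 could not be reached. For Siglech (-0.12), Aif1 (-0.11), Sall1 (-0.13) and Gpr34 (0.05) the groups overlapped (exact permutation p from 0.4 to 0.8). The 95% intervals of the fold change of Cx3cr1 (2.48 to 3.37) and Csf1r (2.19 to 2.91) lay above those of P2ry12 (1.23 to 1.78) and Tmem119 (1.22 to 1.88), whereas that of P2ry13 (1.52 to 2.33) overlapped that of Csf1r.

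**Figure D3:**
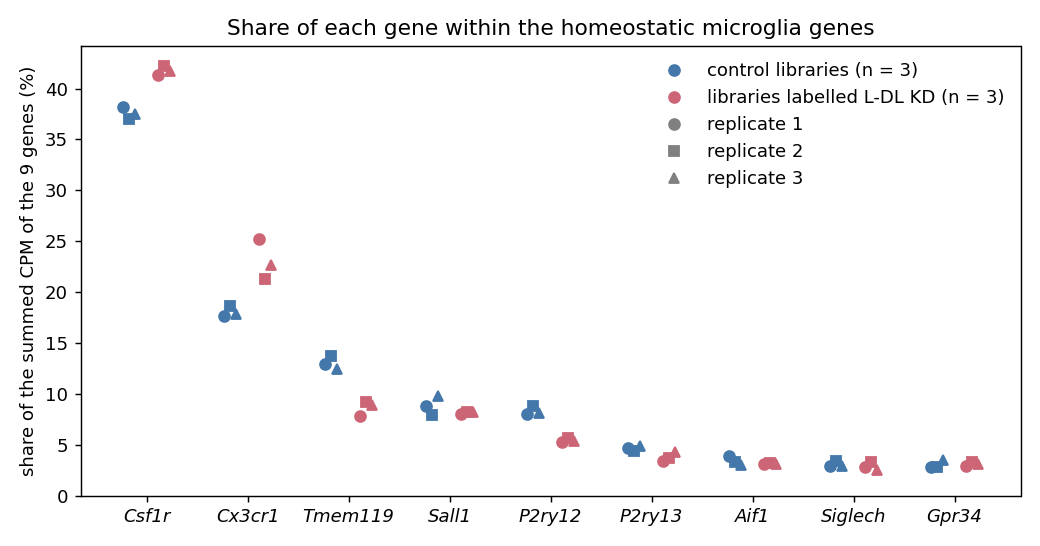
Share of each gene in the summed CPM of the 9 genes (vertical axis, percent, starting at 0) for the 3 control libraries (blue) and the 3 KD-labelled libraries (red), with symbols for the replicate number. Csf1r and Cx3cr1 sit higher in red than in blue, and Tmem119, P2ry12 and P2ry13 sit lower.

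Levels were compared between genes as CPM per kilobase of merged exon length. In the controls the order was Csf1r with 37.1 ± 3.09, Tmem119 with 32.1 ± 4.59, Cx3cr1 with 22.9 ± 2.66 and P2ry12 with 18.8 ± 2.62 CPM per kilobase (SD, n = 3 each). Then came Aif1 (12.7 ± 2.2), P2ry13 (10.4 ± 0.425), Sall1 (9.55 ± 0.184), Gpr34 (8.26 ± 0.6) and Siglech (5.26 ± 0.987), all in CPM per kilobase (SD, n = 3 each). The ranges of Csf1r and Tmem119, of Cx3cr1 and P2ry12, and of Aif1 and P2ry13 overlapped, so these neighbours in the order did not differ beyond their spread.

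In the KD-labelled libraries, Csf1r was again first with 93.8 ± 7.26 CPM per kilobase (SD, n = 3). Cx3cr1 followed with 66.2 ± 3.97 and Tmem119 with 48.7 ± 7.04 CPM per kilobase (SD, n = 3 each). Cx3cr1 and Tmem119 had thus changed places, and their ranges were apart in both groups (20.7 to 25.9 and 28 to 37.1 CPM per kilobase in the controls, 61.9 to 69.7 and 40.6 to 53.5 in the KD-labelled libraries). P2ry12 (27.8 ± 2.55) and Aif1 (26.6 ± 1.88) overlapped, as did Sall1 (20.1 ± 1.7), P2ry13 (19.7 ± 3.59) and Gpr34 (19.5 ± 2.27), while Siglech (11 ± 1.59 CPM per kilobase, SD, n = 3 each) was again last.

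The ligands of the members moved in different directions. Csf1, a ligand of Csf1r made by glia and neurons, was at 76.2, 80 and 73.3 CPM in the controls and 127, 107 and 110 CPM in the KD-labelled libraries, and rose by 0.58 on the log2 scale (edgeR adjusted p = 0.00186). Il34, the other Csf1r ligand, which in the forebrain comes from neurons, was at 34.8, 30.8 and 30.4 CPM against 15.9, 18.1 and 20.1 CPM, and fell by 0.83 on the log2 scale (edgeR adjusted p = 0.00194). Cx3cl1, the neuronal ligand of Cx3cr1, was at 453, 460 and 448 CPM against 383, 354 and 321 CPM, and fell by 0.36 on the log2 scale (edgeR adjusted p = 0.00995). For both neuronal ligands the KD-labelled libraries lay below all controls. All 11 neuronal markers described further on fell as well, with a median log2 fold change of -0.73. The part of these lower neuronal marker levels in the fall of the ligands was not tested.

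Among the other partners, Tyrobp, the adaptor of Siglech and Trem2, rose from 42.3 ± 4.71 to 77.2 ± 16 CPM (SD, n = 3 each; edgeR adjusted p = 0.00482). Gnai2, an inhibitory G protein subunit through which chemokine and ADP receptors act, rose by 0.59 on the log2 scale (edgeR adjusted p = 0.00259), as did Adam17, a protease that sheds Cx3cl1, by 0.59 (edgeR adjusted p = 0.00323). Adam10, the other Cx3cl1 sheddase, had a log2 fold change of -0.02 (edgeR adjusted p = 0.895). Entpd1 and Nt5e, which break down extracellular nucleotides, had 0.26 (edgeR adjusted p = 0.225) and -0.09 (edgeR adjusted p = 0.762). Of these 9 ligands and partners, 4 rose, 2 fell and 3 did not pass the test, with a median log2 fold change of 0.26.

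Regulators of microglial identity were mostly higher. Of 16 transcription factors and TGF-beta signalling genes, 12 rose, 1 fell and 3 did not pass the test, and the median log2 fold change was 0.72. The largest rises were those of Tgfbr2, a TGF-beta receptor subunit (log2 fold change 1.24, edgeR adjusted p = 0.000326), and Spi1, the gene of PU.1 (1.21, edgeR adjusted p = 0.00177). Mef2a, a transcription factor, fell from 171 ± 2.36 to 122 ± 9.95 CPM (SD, n = 3 each; edgeR adjusted p = 0.00231).

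Of 15 further microglial genes 14 rose and none fell, with a median log2 fold change of 0.99. Fcrls rose from 26.2 ± 0.828 to 155 ± 16.2 CPM (SD, n = 3 each; log2 fold change 2.57, edgeR adjusted p = 4.55e-05), more than any member. Olfml3 (1.79, edgeR adjusted p = 0.000138) and Trem2, a lipid-sensing receptor of microglia (1.41, edgeR adjusted p = 0.000733), followed on the log2 scale. Slc2a5 did not pass the test (log2 fold change 0.32, edgeR adjusted p = 0.381).

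Genes of the disease-associated microglial state rose in 10 of 14 cases, with a median log2 fold change of 0.83 and Spp1, the gene of osteopontin, as the largest (18.6 ± 3.01 to 87.5 ± 18.8 CPM, SD, n = 3 each; edgeR adjusted p = 0.000197). Their summed level was 5940 to 6990 CPM in the controls and 11100 to 15600 CPM in the KD-labelled libraries. Apoe, which astrocytes also express strongly, made up much of it, with 3250 to 3750 CPM and 7530 to 10700 CPM. Gpnmb (-0.59, edgeR adjusted p = 0.201) and Lgals3 (-0.17, edgeR adjusted p = 0.718) had negative log2 fold changes that did not pass the test. Of 12 genes shared by myeloid cells 11 rose, with a median of 1.07 and Cd14 as the largest (log2 fold change 1.82, edgeR adjusted p = 0.000972). Lyz2 was the exception among these, with 473 ± 189 and 478 ± 196 CPM (SD, n = 3 each). Several of these genes are expressed in microglia as well as in other macrophages. These medians are set side by side and the difference between the lists was not tested.

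Markers of other cell types also moved with the group. Of 8 tested border-associated macrophage markers 4 rose, and the 9 listed summed to 85.2 to 117 CPM in the controls and 179 to 369 CPM in the KD-labelled libraries. Stab1 was the largest of these (log2 fold change 1.58, edgeR adjusted p = 0.0014), and Pf4 was too low to be tested. With a control left out the count was 2, whichever control it was, and without the first KD-labelled library it was 7. Border macrophages also express Cx3cr1, Csf1r and Aif1, and their part in the rise of these members was not tested.

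In monocyte and neutrophil markers edgeR called 0 of 6 tested genes, with 0 at an unadjusted p under 0.05 and 0 called by DESeq2. The 9 listed genes, of which S100a8, Cxcr2 and Retnlg were too low to be tested, summed to 30.7 to 37.4 CPM in the controls and 30.8 to 55.7 CPM in the KD-labelled libraries. In lymphocyte markers edgeR called 0 of 11, with 3 lower at an unadjusted p under 0.05 and 0 called by DESeq2, and a median log2 fold change of -0.43. Their sums, from 70 to 237 CPM in the controls and from 138 to 364 CPM in the KD-labelled libraries, overlapped and did not follow this median. Jchain, the gene of the immunoglobulin joining chain, made up much of these sums, with 25.9 to 184 CPM and 109 to 315 CPM (edgeR adjusted p = 0.242), while 10 of the 11 genes had a negative log2 fold change. Of 10 cell division genes edgeR called 0, with 3 higher at an unadjusted p under 0.05 and 0 called by DESeq2. Their median log2 fold change was 0.41, and 9 of the 10 had a positive one. These division genes summed to 38.5 to 56.4 CPM in the controls and 49.9 to 66.1 CPM in the KD-labelled libraries.

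All 11 neuronal markers were lower, with a median log2 fold change of -0.73 and sums of 9450 to 10000 CPM against 5360 to 6390 CPM. Rbfox3, the gene of NeuN, fell furthest (250 to 98 CPM in the means, edgeR adjusted p = 0.000135), and without control replicate 1 the count of neuronal markers called lower was 6. The part of these lower neuronal marker levels in the rise of the members was not tested. Among 8 astrocyte markers 2 rose (Aqp4 the most) and 3 fell (Gja1 the most), with sums of 7870 to 8020 and 6160 to 7250 CPM. Of 8 oligodendrocyte markers 1 rose, Mag, with sums of 7970 to 8530 and 6900 to 10100 CPM. Without the third KD-labelled library 4 of these markers were called higher, and without the first 1 was called lower. Of 8 endothelial markers 5 rose, Cldn5 the most (log2 fold change 1.08, edgeR adjusted p = 0.00296), with sums of 325 to 353 and 414 to 505 CPM.

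**Figure D4:**
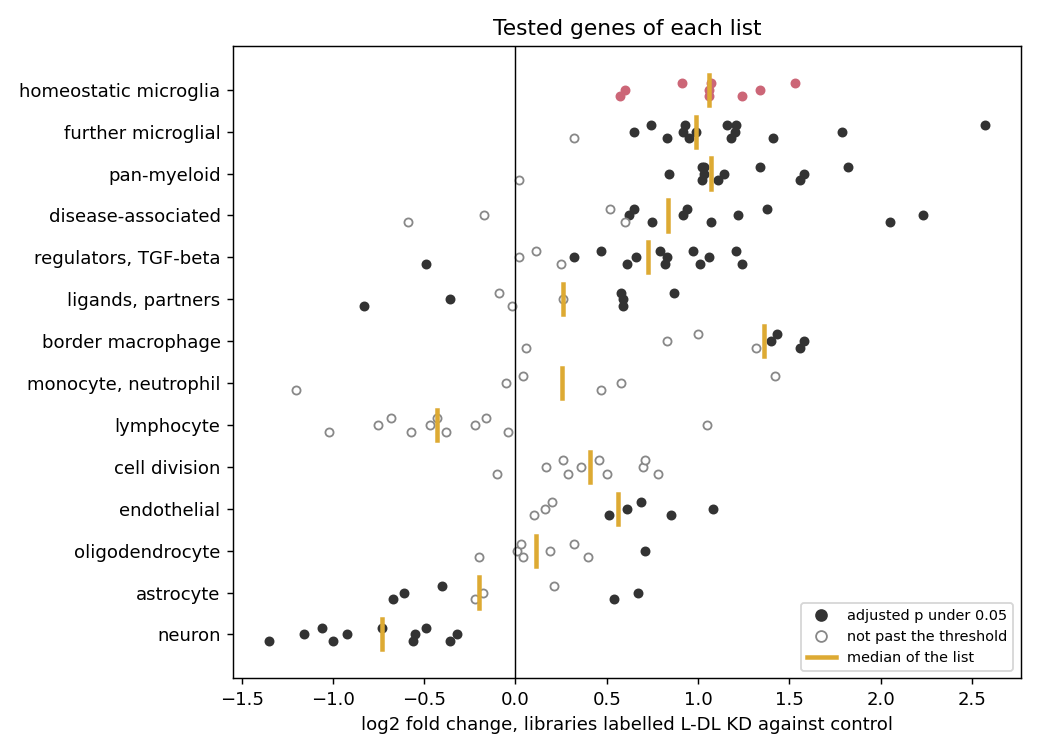
Log2 fold change (horizontal axis, KD-labelled libraries against controls, n = 3 each) of every tested gene in the list of 9 homeostatic microglia genes and in 13 other lists. Filled points (red for the homeostatic genes) passed an adjusted p of 0.05 in edgeR, open points did not, and the bar is the median of the list (1.06 for the homeostatic genes, 0.99 for further microglial genes, 0.83 for disease-associated genes and -0.73 for neuronal genes).

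The genes whose levels followed the members most closely were found by Pearson's r of log2 CPM with the mean log2 CPM of the 9 members over the 6 libraries, among 12711 other genes with a mean of at least 5 CPM. As the libraries and the difference between the groups are shared, 947 genes had an r over 0.95, so that a high r is common here and is given as a description. Among the 10 highest were Inpp5d (r = 0.9996), Snrpc, Lbh, Cdkn1a, Rpl28-ps1, Sri, Emid1, Aaas and Vav2 (r = 0.9972). Inpp5d encodes a phosphatase of myeloid cells and rose from 51.2 ± 4.82 to 102 ± 7.39 CPM (SD, n = 3 each; log2 fold change 0.99, edgeR adjusted p = 0.000315). Cdkn1a, the gene of the cell cycle inhibitor p21, had the largest change of the 10 (95.7 ± 19.6 to 357 ± 61.3 CPM, SD, n = 3 each; log2 fold change 1.9, edgeR adjusted p = 0.00029). Rpl28-ps1, a pseudogene whose reads may belong to its parent gene, did not pass the test (log2 fold change 0.1, edgeR adjusted p = 0.628).

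Splicing of the members was examined in the junction counts, whose columns carry the numbers 1 and 2 for the groups, with 1 taken as L-DL KD from the study's definition of its change. Of 40961 listed events 23 lay in 7 members, 8 in Aif1, 7 in Siglech, 3 in Csf1r, 2 in P2ry12 and 1 each in Tmem119, Sall1 and Gpr34, and none in Cx3cr1 or P2ry13. They were 19 skipped exons, 2 pairs of mutually exclusive exons and 2 alternative 3′ splice sites. Several share junctions and are not independent. The other form was seen in under 1 count per library on average for 10 of them, including the 3 exons of Csf1r and the exon of Gpr34, which were included at a mean PSI (percent spliced in, as a fraction) of at least 0.995 in both groups.

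For the 13 events with enough counts of both forms, edgeR's quasi-likelihood test called 0, with 0 at an unadjusted p under 0.05 and 0 of both kinds in limma. Of all 18829 tested events edgeR called 0.255%, and 13.3% had an unadjusted p under 0.05. The smallest adjusted p of a member event was 0.471. The 131 nt exon of P2ry12 at chromosome 3 from 59227451 to 59227581 had a PSI of 0.348, 0.616 and 0.4 in the controls and 0.445, 0.607 and 0.377 in the KD-labelled libraries, at a mean of 21.5 counts per library. The groups overlapped fully. The change was 0.27 on the log2 odds scale with a wide 95% interval of -1.68 to 2.22, so that sizeable changes were not detectable at this depth.

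In Siglech, the 279 nt exon from 55768887 to 55769165 of chromosome 7 was included at 0.551, 0.458 and 0.447 in the controls and 0.543, 0.536 and 0.424 in the KD-labelled libraries. The groups again overlapped, with a change of 0.1 on the log2 odds scale (95% interval -0.87 to 1.07; edgeR adjusted p = 0.959). Another skipping event of the same exon, with other junction counts, had a change of 1.11 (95% interval -1.4 to 3.62; edgeR adjusted p = 0.765). In Aif1, an alternative 3′ splice site that adds 135 nt (chromosome 17 from 35171805 to 35171939) was used at 0, 0.00921 and 0.0249 in the controls and at 0.0263, 0.0212 and 0.0252 in the KD-labelled libraries. This event had the smallest adjusted p of the 13 (0.471, edgeR), with inclusion counts of 0 to 5 per control library and 15 to 16 per KD-labelled library. The 3455 nt exon of Sall1 (chromosome 8 from 89029944 to 89033398) had a mean PSI of 0.99 in the controls and 0.953 in the KD-labelled libraries (edgeR adjusted p = 0.629), and the 73 nt exon of Tmem119 was included at a mean of 0.0126 and 0.00735 (edgeR adjusted p = 0.789). The KD-labelled values were 0.99, 0.892 and 0.978 for Sall1 and 0.0198, 0 and 0.00228 for Tmem119, so each mean leaned on 1 library.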

How the data were processed

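Hippocampal RNA of 6 mouse libraries was prepared by the authors with oligo(dT) enrichment and sequenced as read pairs aligned to GRCm38. The submitters' processing notes list HISAT2 (2.1.0), HTSeq (0.6.1), Bowtie (1.1.2) and mm10 without their roles, and whether counting used strand is not given in the sources used here. Raw, unnormalized read counts for each Ensembl gene were deposited, together with rMATS junction counts of splicing events made by the authors. The p-values, FDR and PSI changes deposited with the events are the authors' own comparison and were not used. The junction columns carry the numbers 1 and 2 in place of group names. Number 1 was taken as L-DL KD, since the deposited difference is level 1 minus level 2 and the study defines its change as L-DL KD minus control. Junction counts of 7 members were 1.71 to 2.84 times as high under number 1, and their gene counts 1.59 to 2.71 times as high in the KD-labelled libraries.

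Gene identifiers were given symbols and merged exon lengths from GENCODE M21 (GRCm38), with 52403 of 52550 matched to a symbol. A gene was tested if 3 or more libraries held 10 or more counts. TMM scaling and the quasi-likelihood test of edgeR (4.0.16, R 4.3.3) were used, adjusted by Benjamini-Hochberg over all 17621 genes. No p was adjusted over the members alone. Inclusion and skipping counts were tested in edgeR with an effect for each library, where the mean junction count was 20 or more and each form averaged 1 or more. Both models were also run on simulated data, and the outcome is not given here. Intervals are 95% intervals from these fits. Ratios between members were compared by exact permutation tests with Python 3.11.15.

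Alternatives were DESeq2 (1.42.0), total library size, other filters, a replicate block, limma (3.58.1) on log2 ratios of inclusion to skipping (pseudocount 0.5), a minimum of 10 junction counts, and leaving out each library. The members and lists were chosen with earlier results of these data known. Named genes are all members, all ligands and partners, the 3 largest called rises and falls among regulators and further microglial genes, the largest called rise and fall in each other list, and the 10 genes most like the members. Slc2a5, Lyz2, Apoe, Gpnmb, Lgals3, Jchain and the splicing events were named after their values were seen. Some genes that this rule names are not reported here.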

Additional observations from a re-analysis of the deposited data

How the results depend on the processing

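All 9 members were higher under every alternative, and their call was kept in DESeq2, with total library size, under both other filters and with the replicate block. With libraries left out in turn, 8 or 9 were called, and Tmem119, whose log2 fold change ranged from 0.51 to 0.72, was the member lost, without control replicate 1. Genes called higher ranged from 1770 to 3236 and genes called lower from 1676 to 3241 with a library left out, against 2743 and 2636. The totals without control replicates 1, 2 and 3 were 3524, 3541 and 3498 genes. With total library size 56.1% of the calls were higher, against 51.0%.

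The counts of called genes in the lists ranged, with a library left out, from 2 to 7 for border macrophage genes, 0 to 2 for monocyte and neutrophil genes, 0 to 1 for cell division genes and 0 to 1 for lymphocyte genes called lower. They ranged from 1 to 4 for oligodendrocyte genes called higher, 0 to 1 for those called lower and 6 to 11 for neuronal genes called lower. With the replicate block, 1 monocyte or neutrophil gene was called higher, and 1 lymphocyte gene was called higher and 1 lower, each against 0. The list counts were not run under the other filters. The cause was not tested.

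With the mean log2 CPM of the other members in place of their sum, the small differences of Siglech (0.0309), Aif1 (0.0361) and Sall1 (0.0296) turned positive. That of Gpr34 was 0.212, against 0.05 with the sum. With a library left out, that of Aif1 ranged from -0.205 to 3.88e-05 and that of Gpr34 from -0.00444 to 0.152. The directions of Cx3cr1, Csf1r, P2ry12, Tmem119 and P2ry13 held in each of these settings, with P2ry13 at -0.163 with the mean log2 CPM.

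Of all splicing events, limma called 0, and edgeR called 0 to 52 with a library left out, against 48. No member event was called in any setting. Signs turned with a library left out for both P2ry12 exons (-0.7 to 0.61 and -0.12 to 0.63 on the log2 odds scale) and the Siglech exon pair (-0.07 to 0.24). They also turned for an event of the 221 nt Siglech exon (-0.11 to 0.37) and of the overlapping 279 nt exon (-0.01 to 0.32). The same held for an event of the 48 nt Siglech exon (-0.2 to 0.73, and -0.08 in limma). Other events of the 279 nt and 48 nt exons kept their sign (0.34 to 2.04 and 0.33 to 2.11). The cause was not tested. The tested member events had a mean of 21.5 to 453 junction counts per library.

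The replicate numbers are shared by the groups. Same-numbered libraries deviated from their group means with correlations of 0.0452, 0.115 and -0.0923 over tested genes, so the numbers were not taken as pairs, and not every library correlated best with its own number. With the replicate block 4635 genes were called, against 5379, and members' log2 fold changes were 0.57 to 1.54. No paired analysis was made for splicing, as the junction counts come in order but carry no replicate numbers.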
